A study of Arabidopsis thaliana with 3 samples.

Results

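Accessible chromatin inside introns, away from any promoter, was described in roots of *Arabidopsis thaliana*. The peak lists of 3 ATAC-seq libraries were merged where peaks shared at least 1 bp, which gave 43236 accessible sites. A site was kept when at least 2 libraries had a peak in it, when its midpoint lay in an intron of every annotated transcript of a protein-coding gene, and when that midpoint was more than 400 bp downstream of the gene's transcription start site (TSS). The midpoint also had to lie outside the stretch from 1000 bp upstream to 400 bp downstream of any other TSS, and a stretch of chromosome 2 that carries a copy of mitochondrial DNA was left out. The rule kept 596 sites, or 2.09% of the 28460 sites found in at least 2 libraries outside that stretch. Of these intronic sites, 390 had a peak in all 3 libraries and 206 in exactly 2, and a further 460 sites met the positional terms but had a peak in a single library. Genomic positions are those of TAIR10.

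ATAC-seq marks open chromatin by the insertion of sequencing adapters with the transposase Tn5. The 3 libraries form a single group with no control group: wild-type Col-0 roots at 14 days of age, whose nuclei were captured by INTACT. All plants carried the same single-plasmid transgene, in which the constitutive 35S promoter drives a nuclear envelope (WPP) domain fused to GFP and to a tag that plant cells biotinylate, so nuclei of any root cell type in which 35S is active were pooled. Several independent transformants were made, and the labels do not say which of them, or how many cultures, stand behind each library, so the spread given below may be partly technical. The study's supplement calls the libraries biological repeats and lists a different input of nuclei for each, least in library 1 and most in library 3, so input and library cannot be told apart in any spread below. The libraries held 61786860, 64805459 and 113785786 window counts, or a mean of 12.96, 13.6 and 23.9 counts per window of 100 bp, and 26404, 36033 and 34828 peaks. Among 13 genes that mark root cell types, 5 had a site near the TSS in at least 2 libraries (SHR, SCR, GL2, CPC and PHO1), against 54.3% of all protein-coding genes. PLT1, PLT2, WOX5, WER, RHD6, COBL9, CASP1 and SMB had none. Fewer cells of a type and less open chromatin per cell cannot be told apart in such pooled nuclei.

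Introns can hold enhancers and other binding sites for transcription factors, besides the signals for splicing. In *Arabidopsis* the best known case is the large intron of the floral homeotic gene AGAMOUS, which carries the regulatory sequence of that gene, and introns close to the promoter are known to raise expression. The G-box, CACGTG, is bound by bZIP and bHLH factors, and the W-box, TTGACC or TTGACT, is the core bound by WRKY factors, many of which act in defence and nutrient responses.

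The windows of 200 bp centred on 5 intronic sites that hold a G-box are shown first, because they include the strongest site of all, its counterpart in a related gene and the sites of a homeobox gene and of a nitrate transporter described below. They are written 5′ to 3′ on the strand of the gene, and capitals mark CACGTG and any TTGACC or TTGACT on either strand.
CSLA02, intron 3 (chr5:7557690-7557889, minus strand): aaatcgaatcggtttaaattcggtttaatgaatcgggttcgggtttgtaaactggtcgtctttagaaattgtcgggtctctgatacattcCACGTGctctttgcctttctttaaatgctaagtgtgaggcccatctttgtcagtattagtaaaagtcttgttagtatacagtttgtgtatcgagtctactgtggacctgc
ATCSLA09, intron 3 (chr5:987671-987870, minus strand): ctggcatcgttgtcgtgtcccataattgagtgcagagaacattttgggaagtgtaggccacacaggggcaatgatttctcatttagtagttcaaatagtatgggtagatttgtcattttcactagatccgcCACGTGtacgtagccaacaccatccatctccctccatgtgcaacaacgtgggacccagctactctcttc
KNAT6, intron 3, stronger site (chr1:8298199-8298398, minus strand): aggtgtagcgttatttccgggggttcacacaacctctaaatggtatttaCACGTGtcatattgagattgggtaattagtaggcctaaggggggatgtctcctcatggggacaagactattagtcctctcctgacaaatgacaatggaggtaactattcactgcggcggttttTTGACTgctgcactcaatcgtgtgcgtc
KNAT6, intron 3, weaker site (chr1:8299062-8299261, minus strand): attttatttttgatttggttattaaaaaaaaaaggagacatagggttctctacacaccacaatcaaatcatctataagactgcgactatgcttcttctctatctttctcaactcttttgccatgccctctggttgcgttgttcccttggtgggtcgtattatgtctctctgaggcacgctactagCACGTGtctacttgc
NRT1.1, intron 4 (chr1:4107791-4107990, plus strand): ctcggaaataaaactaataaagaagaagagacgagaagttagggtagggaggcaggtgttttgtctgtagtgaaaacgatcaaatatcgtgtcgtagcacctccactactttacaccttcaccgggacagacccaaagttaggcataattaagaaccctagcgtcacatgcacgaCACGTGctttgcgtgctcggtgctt

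The second set was chosen for the W-box, in a gene that restrains immunity and in a pair of related phosphate transporter genes. None of these 3 windows holds a G-box.
DMR6, intron 2 (chr5:8381412-8381611, plus strand): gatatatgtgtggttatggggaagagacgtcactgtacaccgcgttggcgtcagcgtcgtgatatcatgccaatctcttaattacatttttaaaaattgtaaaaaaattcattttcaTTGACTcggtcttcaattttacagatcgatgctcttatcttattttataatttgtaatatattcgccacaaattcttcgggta
PHT1;8, only intron (chr1:7257426-7257625, minus strand): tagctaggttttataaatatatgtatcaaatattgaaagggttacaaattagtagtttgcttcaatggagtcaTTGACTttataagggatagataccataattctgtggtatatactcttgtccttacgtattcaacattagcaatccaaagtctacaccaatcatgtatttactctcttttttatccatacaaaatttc
PHT1;9, only intron (chr1:28680362-28680561, minus strand): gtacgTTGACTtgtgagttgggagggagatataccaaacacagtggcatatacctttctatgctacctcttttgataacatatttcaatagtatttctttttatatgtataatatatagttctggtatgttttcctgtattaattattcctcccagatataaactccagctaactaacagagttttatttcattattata
Each window of the second set holds 1 W-box. The 8 windows were picked after the values were known and illustrate the sites. Their GC content ranged from 29.5% in PHT1;8 to 47% in ATCSLA09.

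Signal in a site is given as the mean count over the windows centred in it, divided by the average window of that library over the nuclear chromosomes, and is called fold for short. Values in library 1, library 2 and library 3 are always listed in that order. Since peaks in these same libraries chose the sites, the level of their signal is given as a description, with no test. The strongest intronic site lay in CSLA02 (AT5G22740), a glucomannan synthase gene of the cell wall, and reached 5.64, 5.91 and 4.46 fold (mean 5.34 ± 0.77 SD, n = 3). It spanned 831 bp, most of intron 3, and ran a little way into the next exon. A separate site in intron 4 of the same gene had 4.39, 5.07 and 3.39 fold (4.28 ± 0.85). Thus CSLA02 held 2 of the 10 strongest sites, and no site lay from 1000 bp upstream to 400 bp downstream of its first TSS. The related glucomannan synthase gene ATCSLA09 (AT5G03760) had a site in its intron 3 as well, of 4.39, 4.95 and 3.96 fold (4.43 ± 0.50), with a G-box as shown above. In the plot of signal along genes, the highest windows of introns 3 and 4 of CSLA02 lay above its promoter and all its exons in every library, while its other introns stayed below exon 2.

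**Figure D1:**
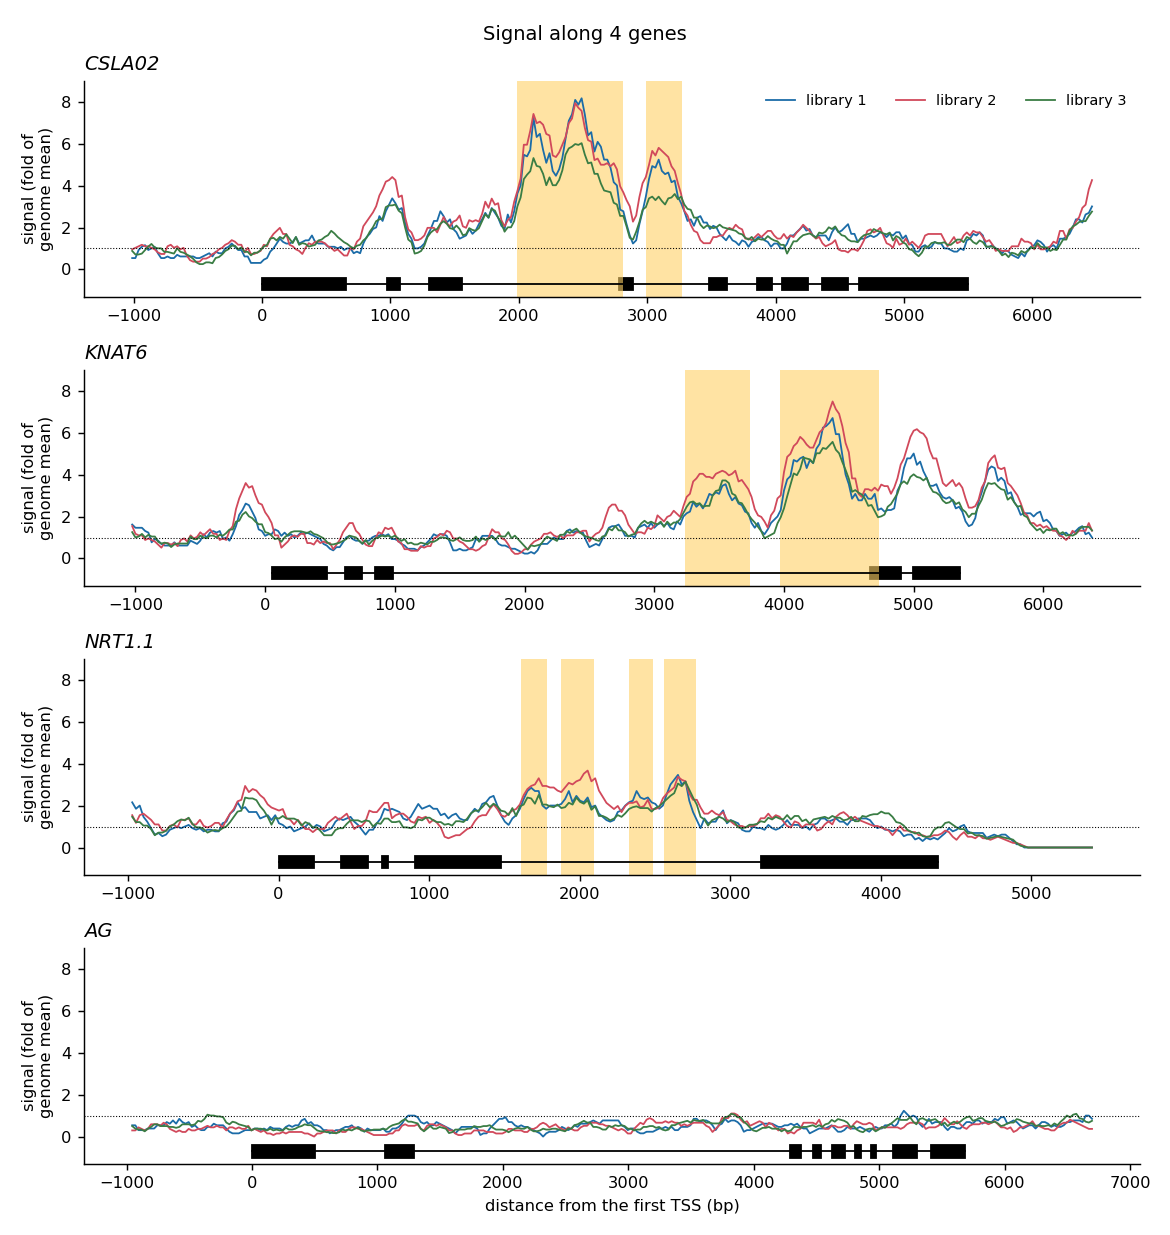
Signal along CSLA02, KNAT6, NRT1.1 and AG, as fold of the genome mean of each library (vertical axis), by distance from the first TSS in bp (horizontal axis). Lines are the 3 libraries, black boxes are exons, yellow bands are intronic sites that met the rule and the dotted line is the genome mean. All 3 libraries peaked inside the bands of CSLA02, KNAT6 and NRT1.1, while AG held no site and its intron 2 averaged 0.489 fold.

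The other sites among the 10 strongest belonged to genes of several kinds. LOG7 (AT5G06300), which releases active cytokinin, held 2 of them: in intron 5 the signal was 4.75, 5.60 and 3.71 fold, and in intron 3 it was 4.37, 5.04 and 3.89 fold. GATA1, a zinc finger transcription factor, had 4.22, 5.84 and 3.55 fold in its only intron. This was the widest spread among the 10 (4.54 ± 1.18). KNAT6, a class I KNOX homeobox gene, had 4.27, 5.01 and 3.91 fold, and PMR6, a pectate lyase-like gene of powdery mildew susceptibility, had 5.07, 4.67 and 3.36 fold. The actin cross-linking protein gene AT1G27100 (4.24, 5.01 and 3.88 fold) and the uncharacterized gene AT1G80610 (4.62, 5.10 and 4.03 fold) completed the list. In each of the 10 sites library 3 was lowest, and library 2 was highest in all but the PMR6 site.

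**Figure D2:**
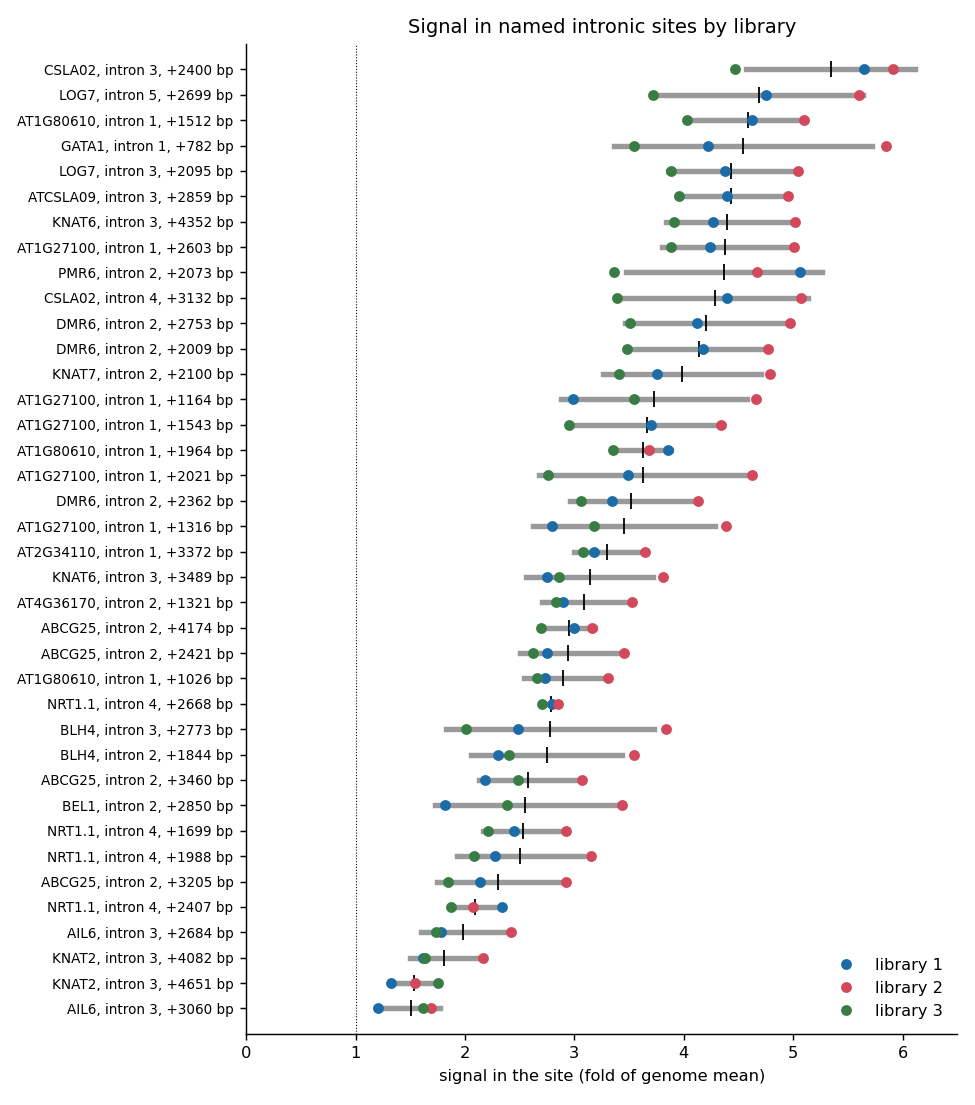
Signal in each named site (horizontal axis, fold of the genome mean, dotted line at 1) by gene, intron number and distance of the midpoint from the first TSS (vertical axis). Points are the 3 libraries, the black tick is their mean and the grey bar is the mean ± 1 SD (n = 3). The means run from 1.51 in a site of AIL6 to 5.34 in CSLA02, and library 2 is the highest point in most rows.

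Across all 596 sites the median signal was 2.50, 3.01 and 2.32 fold (2.61 ± 0.36), while the introns that could hold a site averaged 0.873, 0.816 and 0.902 fold. Library 2 was highest for 501 sites and library 3 lowest for 398. The coefficient of variation of a site over the libraries had a median of 15.5%. Sites with peaks in 2 libraries were weaker (medians 1.99, 2.57 and 2.03 fold) than those with peaks in 3 (2.75, 3.26 and 2.48 fold), and peaks chose both groups. Of the 206 sites seen in 2 libraries, 148 lacked a peak in library 1, which had the fewest peaks.

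The sites fell in 480 genes, 2.58% of the 18575 protein-coding genes whose introns could hold one, and in 517 introns, 0.562% of the 91969 that could. A single site was held by 385 of these genes, and 95 genes held at least 2. AT1G27100 held 5 sites, all in its intron 1 of 1856 bp, with means from 3.45 to 4.38 fold. ABCG25, which exports abscisic acid, held 4 sites along intron 2 of 3388 bp, and their means ran from 2.30 to 2.95 fold. NRT1.1, a nitrate transporter and sensor, also held 4 sites, in intron 4 of 1724 bp. From 5′ to 3′ these NRT1.1 sites had means of 2.53, 2.50, 2.09 and 2.78 fold. The last of them varied least between libraries (2.80, 2.85 and 2.71 fold) and is the G-box window shown above. DMR6 (AT5G24530), which encodes a hydroxylase that inactivates salicylic acid, held 3 sites in intron 2 of 2251 bp. They had 4.17, 4.77 and 3.48 fold, then 3.35, 4.13 and 3.06 fold, and nearest the 3′ end 4.12, 4.97 and 3.50 fold. All 3 DMR6 sites thus exceeded the median site in every library. The sites of 1 intron share their gene and chromatin and are not independent of each other.

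The promoter region was taken here from 1000 bp upstream to 400 bp downstream of the first TSS of the gene. Later transcript starts were not checked. Of 480 genes with an intronic site, 319 (66.5%) also had a site in that region, against 57.9% of the genes that could hold an intronic site and had none. The remaining genes, CSLA02, LOG7, KNAT6, ABCG25 and NRT1.1 among them, had called sites in the intron and none in the promoter region in at least 2 libraries. The plot of signal along genes shows that KNAT6 and NRT1.1 had upstream rises that did not meet this rule.

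The homeobox genes were examined because introns of KNOX genes are known to be long. Among 25 class III HD-ZIP and TALE homeobox genes that could hold a site, 5 did (20%, against 2.58% of all genes), with 8 sites. At the density of sites in introns of the same lengths, 3.03 sites would be found. KNAT6 and its close relative KNAT2 each had 2 sites in intron 3, of 3676 and 4162 bp. The pair of sites differed in level: the KNAT6 sites had 4.27, 5.01 and 3.91 fold and 2.75, 3.81 and 2.85 fold. The KNAT2 sites had 1.62, 2.16 and 1.64 fold and 1.32, 1.54 and 1.75 fold. Every library value of KNAT6 lay above every value of KNAT2. KNAT7, a class II gene of secondary walls, had 3.75, 4.79 and 3.403 fold in intron 2. The BELL genes, whose proteins pair with KNOX proteins, were represented by BLH4 and BEL1. BLH4 had 2.30, 3.54 and 2.40 fold in intron 2 and 2.48, 3.84 and 2.01 fold in intron 3, and BEL1, an ovule identity gene, had 1.81, 3.44 and 2.39 fold in intron 2. In these BELL sites library 2 stood well above the other libraries.

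Among 8 AINTEGUMENTA and PLETHORA genes that could hold a site, 1 did (12.5%, against 2.58% of all genes). This was AIL6, with 2 sites in intron 3, where 0.816 would be found over the list at the density in introns of the same lengths. The AIL6 sites were weak, at 1.78, 2.42 and 1.73 fold and at 1.21, 1.69 and 1.62 fold. The 35 MIKC MADS-box genes on the list, which include the floral organ identity genes, held no site. At the density in introns of the same lengths 6.84 would be found. The list is not complete for MADS-box genes, since it leaves out AGL67 (AGAMOUS-like 67), which held 1 site. In AGAMOUS (AG), intron 2 of 2999 bp averaged 0.500, 0.487 and 0.481 fold, and its highest window reached 1.003, 1.103 and 1.089 fold. In FLC, a repressor of flowering, intron 1 of 3493 bp averaged 0.463, 0.320 and 0.423 fold. Neither intron had a peak in any library, and both lay below the genome mean in every library. None of 15 auxin response factor genes and none of 8 actin and polyubiquitin genes held a site, where 0.321 and 0.0724 would be found, so little can be read from these short introns. Genes whose annotated product names a transcription factor, a MADS-box or a homeobox held 13 sites in 11 of 329 genes (3.34%), with 16.7 at the density of their intron lengths, and receptor kinase genes 2 sites in 2 of 131 genes (1.53%), with 2.69. The first of these lists is incomplete, since it leaves out genes annotated by domain, among them the MYB genes, WRKY11, LRL1 and LRL2 described below.

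Genes with known functions in roots are described next, and were chosen after their values were seen, for their roles. Nutrient transporters came first. NRT1.5, which loads nitrate into the xylem, held sites of 2.50, 3.16 and 2.35 fold and 2.31, 3.70 and 1.90 fold in intron 2, and NRT1.7 held a site of 2.52, 2.75 and 2.27 fold in intron 1. The phosphate transporter genes PHT1;8 and PHT1;9 have a single intron, of 3066 and 1161 bp. In it PHT1;8 had a site of 2.69, 3.13 and 2.15 fold, and PHT1;9 a site of 2.69, 2.92 and 2.25 fold and a second of 2.18, 2.46 and 2.29 fold. The first 2 of these sites hold the W-boxes shown above, and a W-box lies in the site of PHT1;4 too (2.60, 2.30 and 1.87 fold). A W-box was found in 33.7% of all intronic sites. NIP5;1, a boric acid channel needed for boron uptake, was the strongest transporter of this group. Its intron 1 of 1725 bp held sites of 3.82, 5.09 and 3.51 fold and of 3.804, 4.17 and 2.95 fold. HMA4, which loads zinc into the xylem, had 3.34, 4.74 and 2.83 fold and 2.65, 3.81 and 2.38 fold in intron 1. The ammonium transporter gene AMT2 (2.44, 3.11 and 2.35 fold), FRD3, which exports citrate for iron transport (2.58, 2.85 and 2.55 fold), and the ferric reductase gene FRO2 (1.85, 1.95 and 1.86 fold) followed. The FRO2 site had no peak in library 1, though its 3 values differed little.

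Hormone genes with a site are given by hormone. For cytokinin, besides LOG7, these were LOG3 (1.4998, 2.45 and 1.49 fold), the cytokinin oxidase gene CKX2 (1.92, 2.08 and 1.92 fold) and the type-A response regulator genes RR5 (4.05, 4.78 and 3.17 fold) and ARR6 (2.40, 2.96 and 2.36 fold). Both response regulator sites lay in intron 4. For auxin, sites lay in the transport genes of the influx carrier AUX1 (2.52, 2.66 and 2.49 fold), the efflux carrier PIN3 (1.99, 2.35 and 1.98 fold) and the transporter ABCB19 (2.54, 3.06 and 2.73 fold). They also lay in TAR2, of auxin synthesis (1.84, 2.06 and 1.98 fold), and in ILL6, annotated as a hydrolase of auxin conjugates. ILL6 held 3 sites, in intron 4 (2.75, 3.23 and 2.58 fold), intron 2 (2.87, 3.10 and 2.56 fold) and intron 1 (2.23, 2.76 and 2.45 fold). For brassinosteroids, 3 cytochrome P450 genes of synthesis held sites. ROT3 had 3.73, 4.11 and 3.36 fold in intron 4, in a window with a G-box and a W-box. CPD had 2.20, 2.82 and 1.90 fold and 1.92, 2.48 and 1.92 fold in intron 3, and BR6OX2 had 2.53, 2.87 and 2.02 fold in intron 2 and 1.68, 2.57 and 1.64 fold in intron 6.

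Of the NADPH oxidase genes, whose products make reactive oxygen species, 3 were chosen and held 2 sites each. RBOHD had 4.20, 4.74 and 3.27 fold in intron 4 and 4.07, 4.16 and 3.20 fold in intron 3. RBOHF (AT1G64060) had 3.59, 4.11 and 2.98 fold in intron 4 and 2.82, 3.71 and 2.77 fold in intron 3. RHD2, the oxidase of root hair growth, had 3.57, 4.27 and 3.46 fold and 3.84, 3.82 and 3.20 fold in intron 9. All of these oxidase sites lay above the median site of their library. The bHLH genes LRL1 (1.98, 2.38 and 1.95 fold) and LRL2 (2.27, 2.22 and 2.37 fold), which act in root hair development, held 1 site each in intron 4, near or below the median.

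Defence genes included, besides DMR6, the lipase-like gene PAD4 (3.04, 3.74 and 2.82 fold), the WRKY factor gene WRKY11 (3.47, 3.79 and 3.17 fold), the transcription factor gene SARD1 (2.48, 3.05 and 2.07 fold and 2.39, 2.79 and 2.24 fold), the transporter gene EDS5 (2.44, 2.70 and 2.46 fold), the receptor gene SNC1 (2.13, 1.74 and 1.56 fold) and FMO1 (1.53, 2.28 and 2.11 fold). The windows of PAD4, WRKY11, FMO1 and 1 of the SARD1 sites hold a W-box, while those of EDS5 and SNC1 do not. Over all 596 intronic sites the share with a W-box was 33.7%, and in intron windows outside sites it was 19.5%. Whether defence genes differ from that share was not tested. Cell wall genes included the expansin genes EXPA6 (3.74, 4.74 and 3.48 fold), EXPA9 (2.44, 2.43 and 2.05 fold) and EXPA5 (1.68, 2.21 and 1.95 fold) and the xylan synthesis gene IRX9 (2.13, 1.88 and 2.33 fold). Among MYB genes, the flavonol regulators MYB12 (3.09, 3.06 and 2.55 fold) and MYB111 (1.85, 1.91 and 1.69 fold) both held a site in intron 2. The indole glucosinolate regulators MYB51 (3.44, 3.70 and 2.75 fold) and MYB34 (3.07, 2.61 and 2.81 fold) held theirs in introns 1 and 2. Among these related genes, a site in the same intron by number was held by CSLA02 and ATCSLA09, KNAT6 and KNAT2, RR5 and ARR6, LRL1 and LRL2, MYB12 and MYB111, and the abaxial identity genes KAN and KAN2 (intron 2 in both). RBOHD and RBOHF also shared their introns by number, while RHD2 differed from both. No number was shared by MYB51 and MYB34, by NRT1.1, NRT1.5 and NRT1.7, or by the brassinosteroid genes ROT3, CPD and BR6OX2. KNAT7 differed from KNAT6 and KNAT2, while BLH4 and BEL1 shared intron 2. Other related genes named in this report were not compared in this way. PHT1;8 and PHT1;9 have a single intron each. All of these comparisons between related genes were picked after the values were seen. How often related genes share such a position by number alone was not tested.

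The position and length of the introns were compared next. The introns with sites were long: the median intron length over the 596 sites was 687.5 bp, against 99 bp for the introns that could hold a site. Only 0.0996% of introns under 200 bp held a site, while 0.928% of those of 200 to 499 bp did, 5.62% of those of 500 to 999 bp, 23.0% of those of at least 1000 and under 2000 bp and 25.4% of the 59 of 2000 bp or more. A longer intron offers more sequence, so the density was compared as well. Per Mb of sequence that could hold a site, there were 10.1 sites in introns under 200 bp, 34.3, 113 and 299 in the next classes, and 154 in introns of 2000 bp or more. Taking each library by its own peaks, introns of at least 1000 bp had 8.64, 7.36 and 6.81 times the density of shorter introns (7.60 ± 0.94, n = 3, higher in 3 of 3 libraries). The two-sided exact sign-flip permutation test over 3 libraries gave p = 0.25, the smallest it allows, so no ratio can pass a threshold of 0.05 by this test. The longest intron with a site was the 5′ UTR intron of AT2G34110 (9724 bp), with 3.18, 3.64 and 3.08 fold. Among the 5 sites in the longest introns, that of AT4G36170 (3885 bp) had 2.90, 3.53 and 2.83 fold. In genes with more than 1 intron, the longest intron held 375 of 516 sites (72.7%) and 30.8% of the sequence that could hold one. The other 80 sites lay in the only intron of their gene.

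**Figure D3:**
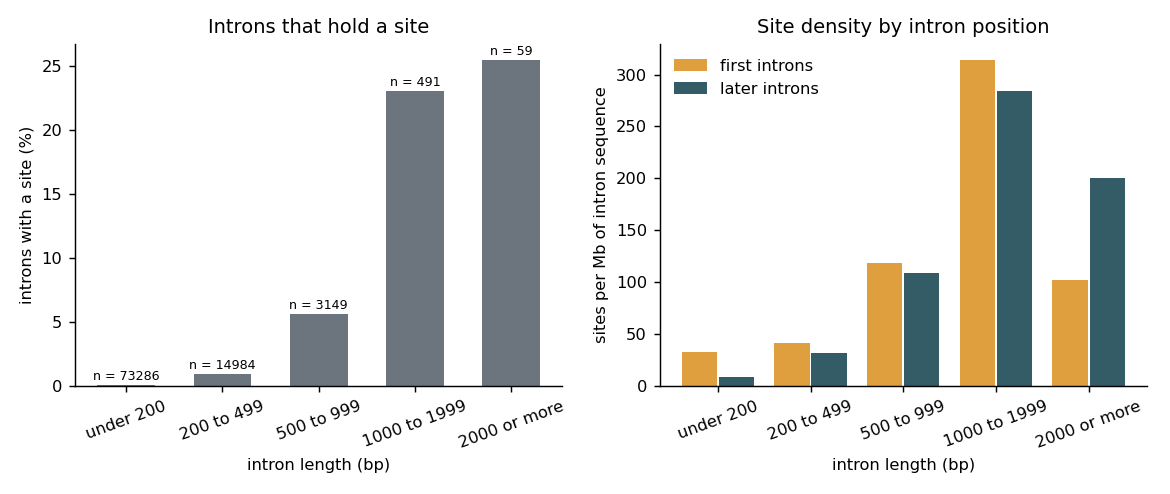
Left, percentage of introns that held at least 1 site by intron length in bp, with the number of introns that could hold a site above each bar. Right, sites per Mb of such sequence in first introns and in later introns, by intron length. The share rose from 0.0996% to 25.4% with length, and first introns had more sites per Mb than later ones in each class except that of 2000 bp or more.

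Intron 1 held the most sites, with 239 of 596 (40.1%) in intron 1, 162 (27.2%) in intron 2, 75 (12.6%) in intron 3, 47 (7.89%) in intron 4 and 73 (12.2%) further on. By the peaks of each library, first introns took 38.7%, 41.3% and 35.6% of the intronic sites and 18.2% of the sequence that could hold one, a ratio of 2.12, 2.26 and 1.95 (2.11 ± 0.16, above 1 in 3 of 3 libraries, two-sided exact sign-flip permutation p = 0.25). First introns also made up 50.3% of the sequence in introns of at least 1000 bp. Within those introns they took 48.5%, 51.2% and 50% of the sites, and the ratio was 0.963, 1.02 and 0.993 (0.991 ± 0.027). The excess in first introns was therefore not seen among long introns. Introns in coding sequence held 571 sites, 5′ UTR introns 21 and 3′ UTR introns 4, which is 95.8%, 3.52% and 0.671% of the sites beside 97.2%, 2.25% and 0.581% of the sequence. With the intron cut into 3 equal parts from its 5′ end, 168, 202 and 226 sites had their midpoint in part 1, 2 and 3.

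The site and the intron did not always coincide. The sites had a median width of 227 bp (76 to 1629 bp), and 339 of 596 lay wholly in the intron, while 257 reached an exon and 115 were wider than their intron. In introns under 200 bp only 1 of 73 sites lay wholly inside, against 24 of 26 in introns of 2000 bp or more. A site in a short intron is thus mostly a site over an intron and its neighbouring exons. The median distance of the midpoint from the first TSS was 1409 bp (413 to 7711 bp). Median signals ran from 2.43, 2.71 and 2.26 fold in introns under 200 bp to 2.79, 3.58 and 2.67 fold in those of 2000 bp or more, which hold 26 sites. At 10 sites another annotated gene also covered the midpoint.

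Introns were compared with exons under the same TSS limits. Over introns of all lengths, sites were sparser than in exons. The libraries had 36.8, 63.0 and 54.3 peaks per Mb of intron and 79.0, 94.0 and 142 per Mb of exon. The ratio was 0.466, 0.670 and 0.382 (0.506 ± 0.148, below 1 in 3 of 3 libraries, two-sided exact sign-flip permutation p = 0.25). Introns of at least 1000 bp, 5.24% of the intron sequence, had 226, 347 and 283 peaks per Mb, more than exons in each library. Shorter introns had 26.2, 47.2 and 41.6 peaks per Mb, fewer than exons in each library. The mean signal over all such exons was 1.06, 0.945 and 1.099 fold, above that of the introns in each library. As a description, since peaks chose both classes, the 1342 coding exon sites had median signals of 2.43, 2.62 and 2.33 fold, and the median of the intronic sites was 1.03, 1.15 and 0.996 times as high (1.06 ± 0.08). The 10296 sites within 400 bp upstream of a TSS had 2.58, 3.11 and 2.38 fold. Peaks in all 3 libraries were found in 65.4% of the intronic sites, 55.2% of the coding exon sites and 75.9% of the promoter sites. The surroundings were like those of coding exon sites and higher than those of promoters: at 1000 bp from the midpoint the mean signal was still 1.54, 1.74 and 1.51 fold around intronic sites and 1.52, 1.71 and 1.496 fold around coding exon sites, beside 1.31, 1.35 and 1.30 fold around promoter sites.

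**Figure D4:**
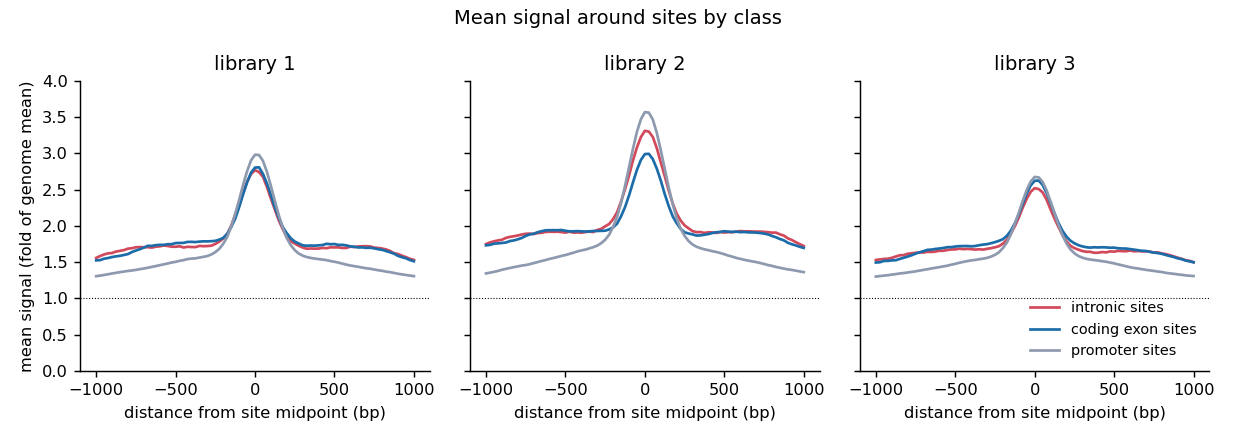
Mean signal (vertical axis, fold of the genome mean, dotted line at 1) by distance from the site midpoint in bp (horizontal axis), for intronic, coding exon and upstream promoter sites in each library. Intronic sites peaked at 2.77, 3.31 and 2.52 fold in libraries 1, 2 and 3, below promoter sites in each library and above coding exon sites only in library 2.

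The library without a peak was looked at separately, although sites were placed in this set because it lacked a peak there. For each site seen in exactly 2 libraries, the signal of the remaining library in the site was divided by its signal over the rest of the same intron outside all sites. In library 1 the median ratio was 1.47 over 120 sites, and 115 of them were above 1. In library 2 it was 1.40 over 22 sites, of which 21 were above 1, and in library 3 it was 1.46 over 28 sites, of which 27 were above 1. The mean of the medians was 1.44 ± 0.04 (n = 3), so the libraries that lacked a called peak had more signal in the site than beside it. The stretch beside the site leaves out all peaks, those of the same library too. With other sites kept in it, the medians were 1.40, 1.36 and 1.26 (1.34 ± 0.07). A further 36 such sites had too little intron outside sites for this comparison and were left out. The signal in a site included any part of it in an exon, while the stretch beside it was intron only. Exons had a higher mean signal than introns in each library, and how much this adds to the ratios was not tested.

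**Figure D5:**
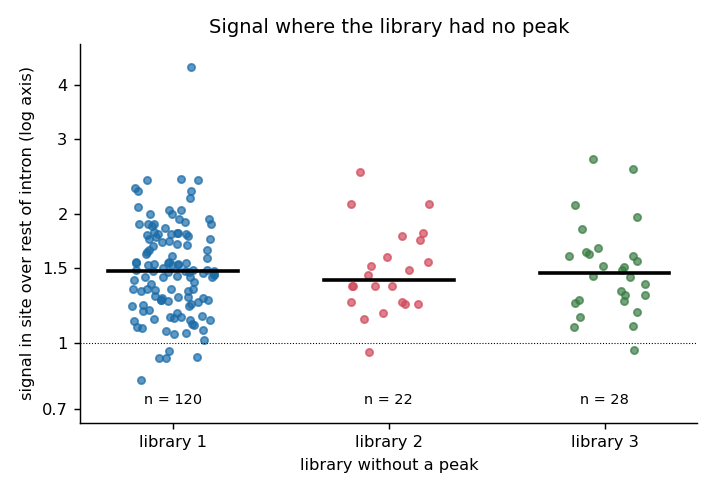
Signal in a site over the rest of its intron (vertical axis, log scale, dotted line at 1) in the library that had no peak there, for sites seen in exactly 2 libraries. Points are sites, placed with a random horizontal offset, and bars are medians, at 1.47, 1.40 and 1.46 in libraries 1, 2 and 3.

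Motifs were searched on both strands in the windows of 200 bp centred on the sites, and in 23291 windows of the same length in introns outside all sites. CACGTG was found in 53 of 596 sites (8.89%) and in 1.06% of the intron windows outside sites. By the peaks of each library the share was 8.05, 7.53 and 7.34 times that of the outside windows (7.64 ± 0.36, above 1 in 3 of 3 libraries, two-sided exact sign-flip permutation p = 0.25). It was 10.4% over all sites found in at least 2 libraries and 11.5% over coding exon sites, so the share in introns was not above that of other sites. Sites with CACGTG had median signals of 2.90, 3.50 and 2.62 fold, and sites without it 2.48, 2.96 and 2.29 fold. TTGACC or TTGACT was found in 33.7% of the intronic sites, 27.1% of all sites, 26.7% of coding exon sites and 19.5% of the outside windows. GAGAGA was found in 12.9% of the intronic sites and 11.5% of the outside windows, against 23.5% of all sites. The telobox AAACCCTA, the auxin response element TGTCTC and the CArG box were found in 1.85%, 10.1% and 1.85% of the intronic sites and in 2.26%, 9.38% and 1.42% of the outside windows. The sequences GAGAGA and TGTCTC can overlap on opposite strands, and none of the others were counted together. A match is a description of the letters, and binding was not measured.

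The windows had a median GC content of 34% over the 596 sites, against 46.5% at coding exon sites and 36.5% at promoter sites. By library, the median of peak windows was 1.5, 1.0 and 2.0 percentage points above that of intron windows outside sites (1.5 ± 0.5). With windows wholly inside the intron the difference was 0.5, -0.5 and 0.5 points (0.17 ± 0.58). This second comparison kept only peaks whose window lay in the intron, 331 of 504, 557 of 864 and 438 of 745, so the set of peaks changed as well. How much exon sequence at the window edges adds to the difference was not tested.

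The limit of 400 bp left out 18 intronic sites that lay closer to their own TSS and to no other. Just inside the rule, UVR8, the receptor of UV-B light, had a site at 413 bp with 1.67, 2.30 and 1.85 fold, AT2G24860 at 434 bp had 2.11, 1.68 and 1.89 fold, and AT2G05760 at 436 bp had 2.58, 2.86 and 2.45 fold. Just outside, AT1G45015 at 400 bp had 1.53, 2.22 and 1.65 fold, AT2G28710 at 396 bp had 2.16, 3.02 and 2.37 fold, and AT4G22630 at 389 bp had 1.52, 1.99 and 1.89 fold. The sites on either side of the limit overlapped in signal.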

How the data were processed

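ATAC-seq was analysed in 3 libraries of root nuclei, the only group. Per the study's methods, reads were aligned to TAIR10 with bowtie, keeping those with a single position, and PCR duplicates were removed with SAMtools. The authors deposited raw read counts per library over windows of 100 bp every 25 bp, with windows at 0 left out, and a MACS2 peak list per library. Each deposited peak carries a score, a ratio (fold enrichment at the summit) and, on a −log10 scale, its p-value and q-value, all by the authors. The score was not used. Library totals of window counts ranged from 61786860 to 113785786. A window at 0 was read as no count. Any pair of libraries had equal counts in at most 13.1% of windows, so none is a copy of another. This does not show that they are independent. They were counted as 3 samples.

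Genes came from the RefSeq annotation of TAIR10.1, whose 5 nuclear chromosomes have the lengths used in the files. "Any other TSS" was read as every annotated transcript start, pseudogenes included. Intron number, length and kind follow the transcript with the longest coding sequence. Density was counted per Mb of intron common to all transcripts and outside the TSS limits. Ratios over libraries were tested with a two-sided exact sign-flip permutation test, whose smallest p with 3 libraries is 0.25. The number of sites a gene list would hold at the density of its intron lengths used the 5 length classes of the report and is a description. No batch is given in the labels.

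The members, gene lists and tests were chosen with earlier results of these data known. Named genes are the 10 strongest sites with peaks in all libraries, the 5 genes with the most sites, the 5 sites in the longest introns, sites in the homeobox, AINTEGUMENTA, MADS-box and auxin response factor lists, AG and FLC, and the 3 sites on each side of the limit. Other genes were named after their values were seen. Member finding and density ratios were tested on simulated data, with narrow peaks at identical positions in the libraries that held them. The merging of wide, partly overlapping peaks was not tested in this way. Python 3.11.15, NumPy 2.4.6, pandas 2.3.3 and matplotlib 3.10.9 were used. Alternatives covered the q-value, site position, TSS set, transcripts, overlap, window width, scaling and each library left out.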

Additional observations from a re-analysis of the deposited data

How the results depend on the processing

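Of 59 alternatives, 47 kept the direction and moved the value by less than 1 SD over the libraries (for counts, less than 1.5 times), 11 moved it further and 1 reversed it. Of the 59, 27 left out a library. Except for counts of sites, leaving out 1 of 3 libraries cannot move the mean by 1 SD. For these the criterion of 1 SD was therefore met in advance. The reversal is the ratio for first introns, 2.11 in all introns and 0.991 in introns of 1000 bp or more, where first introns hold 50.3% of the sequence. The same ratio was 2.67 more than 600 bp from the TSS. Requiring a peak in all 3 libraries left 390 of 596 sites. The median signal, 2.61 fold, was 3.09 fold by the highest window and 0.897 when scaled to the median over sites with a peak in all libraries. The signal in the library without a peak, 1.44, was 1.56 by the highest window over the median window of the intron, 1.39 in 200 bp around the midpoint and 1.34 with other sites kept in the rest of the intron. The G-box ratio, 7.64, was 8.49 in windows of 100 bp and 8.69 in windows wholly in the intron. The GC difference, 1.5 points, was 2.67 in windows of 100 bp and 0.167 in windows wholly in the intron. Leaving out each library in turn, the count of sites ranged from 422 to 541, the intron over exon density from 0.424 to 0.568, the first intron ratio from 2.03 to 2.19, the long over short density from 7.08 to 7.997, the median signal from 2.41 to 2.76 fold, the ratio to coding exon sites from 1.01 to 1.09, the library without a peak from 1.43 to 1.47, the G-box ratio from 7.44 to 7.79 and the GC difference from 1.25 to 1.75 points. Windows wholly in the intron, other sites kept, the ratio over sites with a peak in all 3 libraries (1.00 against coding exon sites) and the long over short density on covered windows (8.13) were chosen after seeing the data. The cause of each move was not tested.

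No paired analysis was possible because all libraries belong to 1 group. With 3 libraries the exact sign-flip test cannot give a p below 0.25, so direction over the libraries and the SD are given. Reads with more than 1 genomic position were dropped upstream, and 1.19% to 1.54% of windows in the introns studied had no count. Signal in narrow introns includes neighbouring exons, since a window spans 100 bp. Counts do not distinguish cell types of the root, and no RNA was used here, so expression of the host genes was not set beside the sites.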

Other observations

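Families of membrane transporters recurred among the genes with intronic sites, and the families given here were chosen after the values were seen, so their counts carry no test. MATE efflux genes, whose products export organic compounds and citrate, held 16 sites in 12 of 48 genes (25%, against 2.58% of all genes), with 3.71 sites at the density of their intron lengths. SWEET sugar transporter genes held 5 sites in 3 of 14 genes, with 0.446 at that density. SWEET17, a fructose transporter of the vacuole, held 3 of them, at 3.92, 4.80 and 3.52 fold, 3.69, 4.44 and 3.22 fold and 2.96, 4.18 and 2.63 fold. SWEET16 had 2.62, 3.13 and 2.70 fold and SWEET14 2.47, 2.49 and 2.22 fold, so SWEET17 stood above both in every library at its 2 stronger sites. UMAMIT genes, of amino acid export, held 8 sites in 6 of 47 genes (2.65 at that density), major facilitator genes 15 sites in 13 of 118 genes (6.90), and nitrate transporter genes 7 sites in 3 of 14 genes (2.04). NRT1.1 held 4 of the last.

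Outside the transporters, pectin lyase-like genes of the cell wall held 14 sites in 10 of 102 genes, with 4.11 at the density of their intron lengths, and MYB domain genes 10 sites in 10 of 105 genes, with 2.72. AT5G23870, of the pectin acetylesterase family, held 3 sites. AT2G08986, an uncharacterized gene with 45 introns, differed from the other sites in its order of libraries. Its 3 sites had 4.09, 2.56 and 2.27 fold, 2.43, 1.55 and 1.72 fold and 1.92, 1.26 and 1.51 fold, highest in library 1 each time, as in only 72 of the 596 sites. It lies on chromosome 2 and its 3 introns with a site are of 109, 55 and 108 bp, so these sites cover exons as well.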
